A study of Danio rerio with 6 samples.

Results

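The core circadian clock genes of zebrafish were compared between tlr2 mutant and wild type larvae. The 10 genes were taken by their symbols in the table of genes: the activators clocka, clockb and arntl1a, the period repressors per1a, per1b, per2 and per3, and the Rev-erb repressors nr1d1, nr1d2a and nr1d2b. All 10 genes were found, each with 1 entry, among 30258 entries of the table, and all 10 were among the 16776 genes tested. Pools of whole, unchallenged larvae at 5 dpf (days after fertilization) were sequenced, with 3 libraries of tlr2-/- mutants and 3 of tlr2+/+ wild type, and poly(A) RNA was read at 150 nt. The mutants carry the ENU allele sa19423, outcrossed to ABTL, and the wild type controls had parents of their own, so the allele and the parental background cannot be told apart. Each library came from a single cross of 2-year-old fish. The sources used here do not give the hour of collection.

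The clock is a feedback loop that runs in most cells of a zebrafish, and many of these cells sense light themselves. Clock and Bmal proteins (arntl1a encodes a Bmal) pair and switch on genes through E-box elements, among them the period and Rev-erb genes. Period proteins, together with cryptochromes, hold the pair back, while the Rev-erb receptors repress transcription of the Bmal genes. In zebrafish per2 is also induced by light, and transcripts of the repressors and of the activators peak at opposite ends of the day, so their balance is a sign of the hour of sampling.

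The libraries held 17854737 to 24088390 reads in mutants and 19828367 to 33403126 reads in wild type. At least 10 reads were found for 15542 to 17133 genes in mutant libraries, and for 12950, 11909 and 19202 genes in wild type replicates 1, 2 and 3. Of genes whose median in the other libraries was 1 to 5 CPM (read counts scaled to library size, here with TMM factors), 32.7% had no read in wild type replicate 1 and 41.7% in wild type replicate 2, against 1.58% to 10.2% in the other 4 libraries. The TMM factor was 1.59 in wild type replicate 3, which lowers its CPM, and 0.789 to 0.983 in the other libraries. Pairs of mutant libraries had correlations of log2 CPM across genes of 0.811 to 0.848, and pairs of wild type libraries of 0.700 to 0.733. Wild type replicates 1 and 2 differed from wild type replicate 3 in most clock genes, so the comparison is given with and without them. This split was taken from the levels of the clock genes, so counts of these genes after it describe the split and are no test. Neither entry of tlr2 had a read in any library, which allows up to 3 counts (0.0899 to 0.168 CPM before TMM scaling, for counting error only), so tlr2 cannot check the genotype labels.

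None of the 10 clock genes passed the test between genotypes in the fit to all 6 libraries with genotype as the only factor. The adjusted p of every clock gene was 0.9998 (edgeR's quasi-likelihood test with Benjamini-Hochberg adjustment over all genes tested), in a fit that called 0.00596% of all genes. DESeq2's Wald test and limma on log2 TPM also called 0 of the 10, with 1 unadjusted p under 0.05 (per2) in DESeq2 and 0 in limma. In edgeR none had an unadjusted p under 0.05, against 3.73% of all genes (1.73% higher and 1.99% lower in mutants). The log2 fold change, mutant over wild type, was positive for 8 clock genes and negative for 2, with a median of 0.42 against 0.02 over all genes tested. Mean TPM was higher in mutants only for clocka (0.285 against 0.0875 in wild type) and per2 (26.7 against 16.3), and lower for the other clock genes. The signs in limma's fits to log2 TPM were those of edgeR. In CPM the groups did not overlap for clocka alone, which was higher in mutants, against 13.1% of all genes without overlap (6.87% higher and 6.2% lower). The spread differed more than the means. The ratio of the highest to the lowest library had a median of 1.39 over the clock genes in mutants and of 12.1 in wild type. Over all genes tested the median was 2.14 in mutants and 5.67 in wild type. These ratios were taken from log2 CPM with a prior count of 2, so a library at 0 gives a finite ratio.

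**Figure D1:**
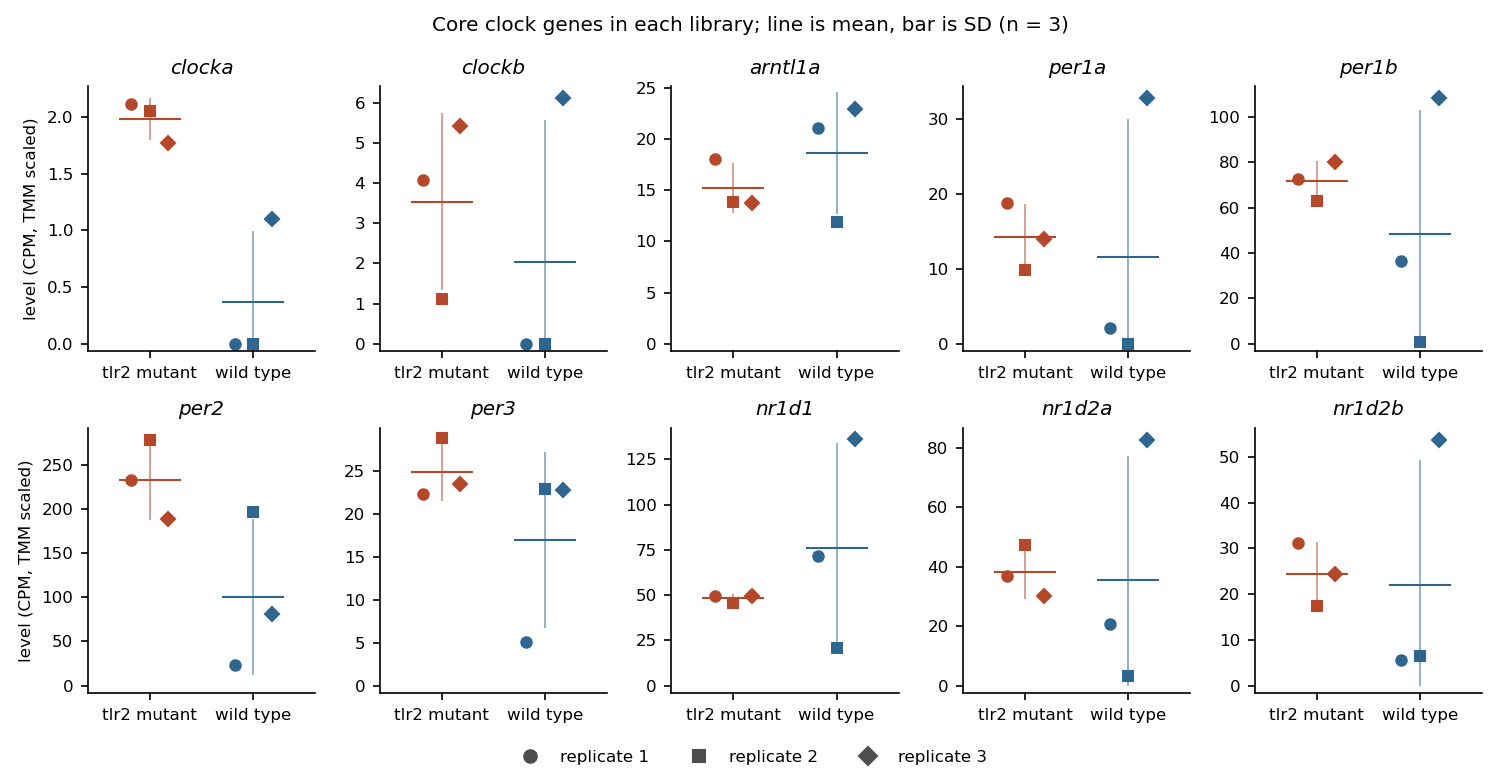
Level in CPM (y axis, linear, a scale of its own for each gene) of the 10 core clock genes in tlr2 mutant (red, left) and wild type (blue, right) larvae. Each point is a library, its shape gives the replicate, the horizontal line is the mean and the vertical bar the SD (n = 3), drawn down to 0 at most. The mutant points of per1b lie between 62.9 and 80.2 CPM, inside the wild type range of 0.886 to 108 CPM.

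Of the activators, arntl1a was the most abundant and had reads in all 6 libraries. It had 18.1, 13.8 and 13.8 CPM in mutant replicates 1, 2 and 3, against 21.1, 11.9 and 22.9 CPM in wild type replicates 1, 2 and 3. The groups overlapped, since wild type replicate 2 was the lowest library. The means were 15.2 ± 2.46 CPM in mutants and 18.6 ± 5.92 CPM in wild type (SD, n = 3 each), and the log2 fold change was -0.29 with a standard error of 0.46 (unadjusted p = 0.540). All reads of arntl1a fell on ENSDART00000148660.3 in wild type replicate 2 and on ENSDART00000023959.10 in the other 5 libraries. These transcripts are 2326 and 2343 bases long, and the values above are sums over both.

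The Clock genes, which encode the partner of Bmal, had the fewest reads of the clock genes. clocka had 2.11, 2.06 and 1.77 CPM in mutants, against 0, 0 and 1.095 CPM in wild type. This was 46, 39 and 29 reads in mutants, against 0, 0 and 58 reads in wild type. The groups do not overlap, yet the fold change cannot be told from 0 (log2 fold change 2.40, standard error 2.40, unadjusted p = 0.336). In TPM, a unit that also divides by transcript length, clocka was 0.438, 0.211 and 0.206 in mutants, against 0, 0 and 0.263 in wild type, so on that scale the groups overlap. Mutant replicate 1 had its reads on the shorter transcript ENSDART00000025575.12 (3424 bases), and the other libraries with reads on ENSDART00000152636.3 (6535 bases).

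clockb had 4.09, 1.11 and 5.43 CPM in mutants, against 0, 0 and 6.12 CPM in wild type. The highest library was thus a wild type one, and the groups overlap (log2 fold change 0.79, standard error 2.01, unadjusted p = 0.702). Both Clock genes were without a read in the same wild type libraries, replicates 1 and 2, where genes at this level were often without one. Set against the 3 counts that a count of 0 allows over those 2 libraries, the pooled mutant level was at least 32.0-fold higher for clocka (114 mutant reads) and at least 55.8-fold higher for clockb (199 mutant reads). These bounds cover counting error and those 2 libraries only.

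Of the period genes, per2 had the smallest p. It had 232, 278 and 188 CPM in mutants, against 23.1, 197 and 80.7 CPM in wild type. Wild type replicate 2 lay above mutant replicate 3, so the groups overlap. In TPM per2 had 29.5, 29.1 and 21.3 in mutants, against 3.27, 24.9 and 20.7 in wild type. On that scale wild type replicate 3 lay just below mutant replicate 3. The means were 233 ± 45.0 CPM in mutants and 100.2 ± 88.5 CPM in wild type (SD, n = 3 each), a log2 fold change of 1.22 with a standard error of 0.61 (unadjusted p = 0.0727). Its sign was positive in all 16 alternative fits, at 0.82 to 2.16. It passed the adjusted threshold with the replicate block, which takes replicate numbers as pairs, although samples of the same number did not deviate together. With wild type replicate 3 as the only wild type library the log2 fold change was 1.70. No fit with a single library left out called it. Without wild type replicate 2 the log2 fold change was 2.16 (unadjusted p = 0.00231, adjusted p = 0.929 in edgeR's test). In the same test it was 0.82 without wild type replicate 1 (unadjusted p = 0.122) and 1.09 without wild type replicate 3 (unadjusted p = 0.190).

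The reads of per2 were assigned to different transcripts in different libraries. ENSDART00000148788.3 (5418 bases) held all reads in mutant replicates 1 and 3 and in wild type replicate 3. ENSDART00000098004.5 (5264 bases) held all reads in wild type replicates 1 and 2, and mutant replicate 2 was split, with 42.3% of the TPM on the first and 57.7% on the second. Each transcript thus had reads in both genotypes.

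per1b was steady in mutants and spread widely in wild type. It had 72.4, 62.9 and 80.2 CPM in mutants, against 36.5, 0.886 and 108 CPM in wild type. The 3 wild type libraries cover a range of 122-fold, and all mutant libraries lie within it. Wild type replicate 2, with 16 reads, was 81.7 times below the median of the other 5 libraries; of 3581 genes at 20 CPM or more, 0.475% were as low in that library. The log2 fold change was 0.56 with a standard error of 1.238 (unadjusted p = 0.664).

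per1a, its paralogue, had 18.8, 9.91 and 14.0 CPM in mutants, against 2.13, 0 and 32.8 CPM in wild type. As for per1b, wild type replicate 3 was the highest library and wild type replicate 2 the lowest (log2 fold change 0.29, standard error 1.63, unadjusted p = 0.865). per3 had 22.3, 28.8 and 23.5 CPM in mutants, against 5.14, 22.9 and 22.8 CPM in wild type. In CPM only wild type replicate 1 stood apart, and the other 5 libraries lay together (log2 fold change 0.55, standard error 0.54, unadjusted p = 0.321, edgeR). In TPM per3 had 1.70, 1.73 and 1.63 in mutants, against 0.440, 1.69 and 3.17 in wild type. On that scale wild type replicate 3 also stood apart, above the mutants. The low wild type library was therefore not the same for all period genes: per2 and per3 were lowest in replicate 1, and per1a and per1b in replicate 2.

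The Rev-erb genes encode nuclear receptors that repress Bmal transcription. nr1d1 had 49.4, 45.5 and 49.8 CPM in mutants, against 71.5, 20.9 and 136 CPM in wild type. Among the clock genes it had the smallest ratio of highest to lowest CPM in mutants. In TPM per3 was tighter in mutants, at 1.63 to 1.73 against 10.4 to 14.1 for nr1d1. For nr1d1 wild type libraries lay on both sides of the mutants, with means of 48.2 ± 2.38 CPM in mutants and 76.2 ± 57.9 CPM in wild type (SD, n = 3 each). The log2 fold change was -0.66 with a standard error of 0.53 (unadjusted p = 0.236).

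nr1d2a had 36.9, 47.5 and 30.1 CPM in mutants, against 20.6, 3.32 and 82.6 CPM in wild type (log2 fold change 0.10, standard error 0.89, unadjusted p = 0.913). nr1d2b had 31.3, 17.5 and 24.5 CPM in mutants, against 5.60, 6.54 and 53.6 CPM in wild type (log2 fold change 0.15, standard error 0.79, unadjusted p = 0.851). For both paralogues, wild type replicate 3 lay above every mutant library and wild type replicates 1 and 2 lay below all of them.

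Levels of different genes were compared in TPM. In mutants the order by mean was per2 (26.7 ± 4.60 TPM), nr1d1 (12.4 ± 1.85), nr1d2a (8.21 ± 1.34), per1b (7.40 ± 1.44), nr1d2b (6.13 ± 2.33), arntl1a (4.96 ± 1.34), per3 (1.68 ± 0.050), per1a (1.56 ± 0.649), clockb (1.38 ± 1.27) and clocka (0.285 ± 0.133), all SD with n = 3. The libraries of neighbours in this order did not overlap between per2 and nr1d1, between nr1d1 and nr1d2a, and between arntl1a and per3, and overlapped for the other 6 pairs. In wild type the order began with nr1d1 (34.1 ± 36.0 TPM) and per2 (16.3 ± 11.5 TPM), whose libraries overlap, and only per3 and clocka, the last pair, did not. per2 was the highest clock gene in the 3 mutant libraries and in wild type replicate 2, and nr1d1 in wild type replicates 1 and 3.

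Shares within a library do not depend on how libraries are scaled to each other. per2 made up 70.8%, 77.6% and 65.3% of the summed TPM of the period genes in mutants, against 38.3%, 93.3% and 38.0% in wild type. The wild type libraries lay on both sides of the mutants, with per1b at 0.365% of the period TPM in wild type replicate 2. nr1d1 made up 44.2%, 43.8% and 51.9% of the Rev-erb TPM in mutants, against 75.7%, 71.9% and 56.3% in wild type. These shares do not overlap and are lower in mutants, but with 3 libraries in each group an exact permutation test cannot go below p = 0.1, and it was one of several shares that were inspected. The ratio of nr1d1 to arntl1a, a repressor and its target, was 2.17, 2.64 and 2.88 in mutants, against 2.73, 1.40 and 4.73 in wild type, and the groups overlap.

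**Figure D2:**
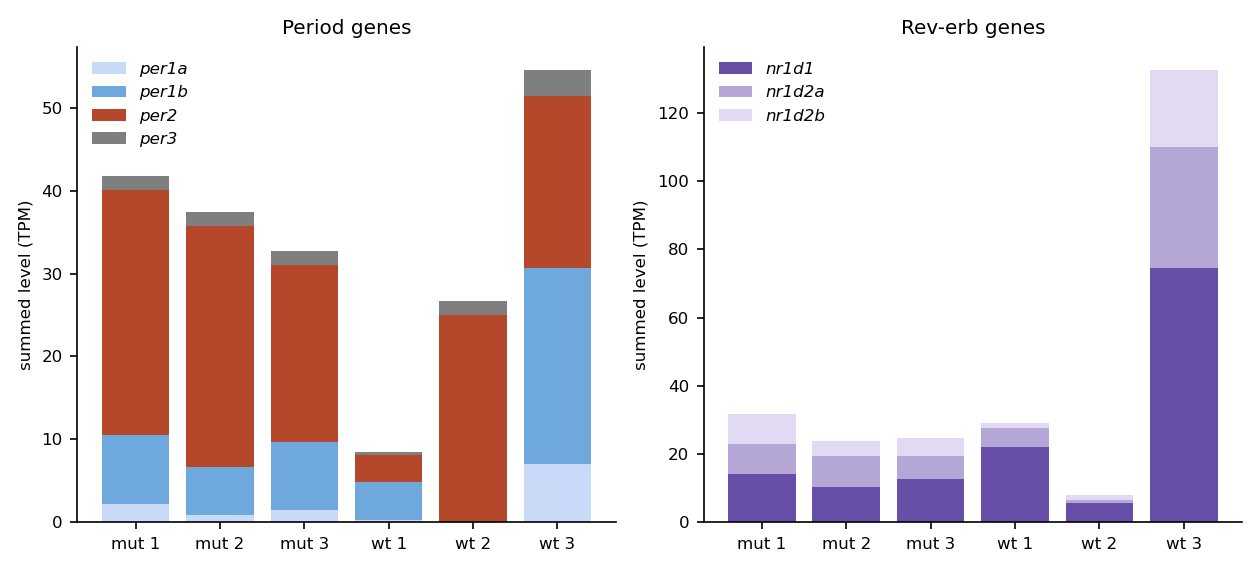
Summed level in TPM (y axes) of the 4 period genes (left) and of the 3 Rev-erb genes (right) in each library, with mutant libraries (mut) left of wild type libraries (wt); colours are genes. per2 makes up most of the period bar in the 3 mutant libraries and in wild type replicate 2, and the Rev-erb bar of wild type replicate 3 is the highest.

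To compare activators with repressors in each library, log2 CPM of each gene was centred on its mean over the 6 libraries. The activators stood at 1.34, 0.59 and 1.26 in mutants, against -2.13, -2.41 and 1.34 in wild type. The 7 period and Rev-erb genes stood at 0.77, 0.62 and 0.61 in mutants, against -0.98, -2.27 and 1.244 in wild type. Activators and repressors were thus both above their means in the mutants and in wild type replicate 3, and both below them in wild type replicates 1 and 2. No library had the activators and the repressors on opposite sides of their means. For arntl1a taken by itself, mutant replicates 2 and 3 (-0.25 and -0.25) and wild type replicate 1 (0.36) lay on the side opposite to the repressors, and mutant replicate 1 (0.14) and wild type replicates 2 and 3 (-0.47 and 0.48) on the same side.

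Activators minus repressors gave 0.56, -0.03 and 0.65 in mutants, against -1.15, -0.13 and 0.10 in wild type, a difference of group means of 0.79 with a pooled SD of 0.54. No test was made of this score. It was 0.41 without wild type replicate 1 and 0.29 against wild type replicate 3 alone. Its sign rests on the Clock genes with few or no reads: with arntl1a as the only activator it was -0.64, -0.87 and -0.86 in mutants, against 1.34, 1.80 and -0.77 in wild type, a difference of -1.58. On that measure wild type replicate 3 lies among the mutants and wild type replicates 1 and 2 stand apart from them. Those 2 wild type libraries also detected the fewest genes, and the part of this in the score was not tested.

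**Figure D3:**
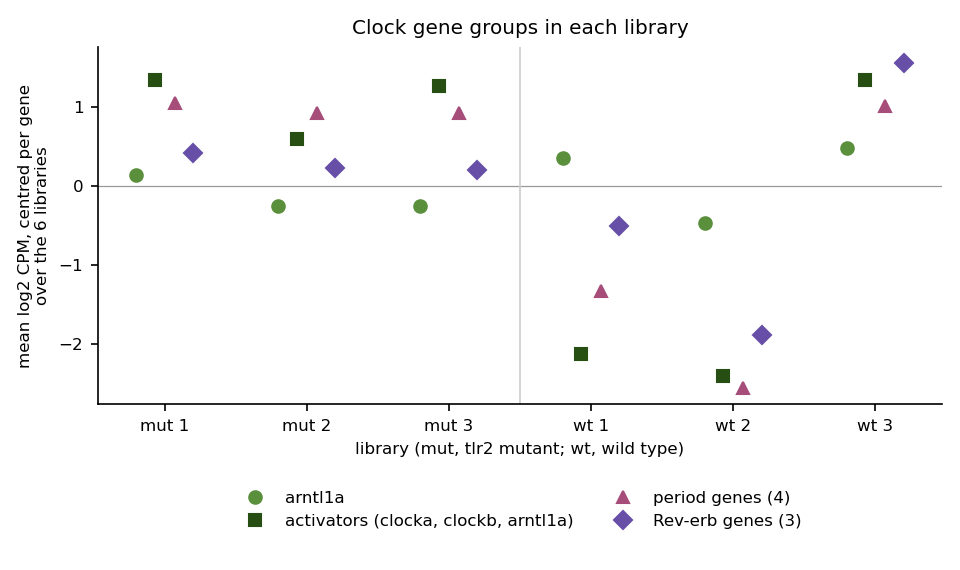
Mean log2 CPM centred per gene over the 6 libraries (y axis) of arntl1a, the 3 activators, the 4 period genes and the 3 Rev-erb genes in each library (x axis), with mutant libraries (mut) left of wild type libraries (wt). Activators, period genes and Rev-erb genes lie below 0 in wild type replicates 1 and 2 and above 0 in the other 4 libraries, while arntl1a stays between -0.47 and 0.48.

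The direction of most clock genes depended on which wild type libraries were used. The split of the wild type libraries followed the levels of these same genes, so the counts and p-values after it are no separate support. Without wild type replicate 3, 4 of the 10 genes had an unadjusted p under 0.05, all of them higher in mutants (clocka, clockb, per1a and nr1d2b), against 16.7% of all genes in that fit (13.3% higher and 3.45% lower), and 0 passed the adjusted threshold (0% of all genes). Of these, nr1d2b had a log2 fold change of 2.02 with a standard error of 0.45 (adjusted p = 0.230, edgeR). The groups of 6 clock genes did not overlap and were higher in mutants, against 35.7% of all genes without overlap (24.9% higher and 10.8% lower).

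Against wild type replicate 3 alone, 5 of the 10 genes had an unadjusted p under 0.05, against 11% of all genes. per2 was higher in mutants, against 8.39% of all genes, and per1a, nr1d1, nr1d2a and nr1d2b were lower, against 2.65% of all genes. For per2 the log2 fold change was 1.70 with a standard error of 0.38, and for nr1d1 -1.33 with a standard error of 0.31. In TPM per2 had 20.7 in wild type replicate 3, just below the mutant range of 21.3 to 29.5. With 1 library on the wild type side none of the 10 overlapped in CPM (3 higher and 7 lower in mutants), against 53.7% of all genes (21.7% higher and 32% lower). This fit assumes that the single wild type library varies like the mutant libraries, and it describes that library. In these 2 fits 6 clock genes had opposite signs. Without wild type replicate 3 and against it alone, the log2 fold changes were 3.72 and -1.04 for per1a, 1.95 and -0.42 for per1b, 0.073 and -1.33 for nr1d1, 1.68 and -0.94 for nr1d2a, and 2.02 and -0.97 for nr1d2b. clockb was also positive in the first, against libraries at 0, and -0.63 in the second. clocka, per2 and per3 were positive and arntl1a negative in both. These signs come from fits to counts with TMM scaling. In TPM wild type replicate 3 had 3.17 for per3, above the mutant range of 1.63 to 1.73. For clocka it had 0.263 TPM, within the mutant range of 0.206 to 0.438.

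**Figure D4:**
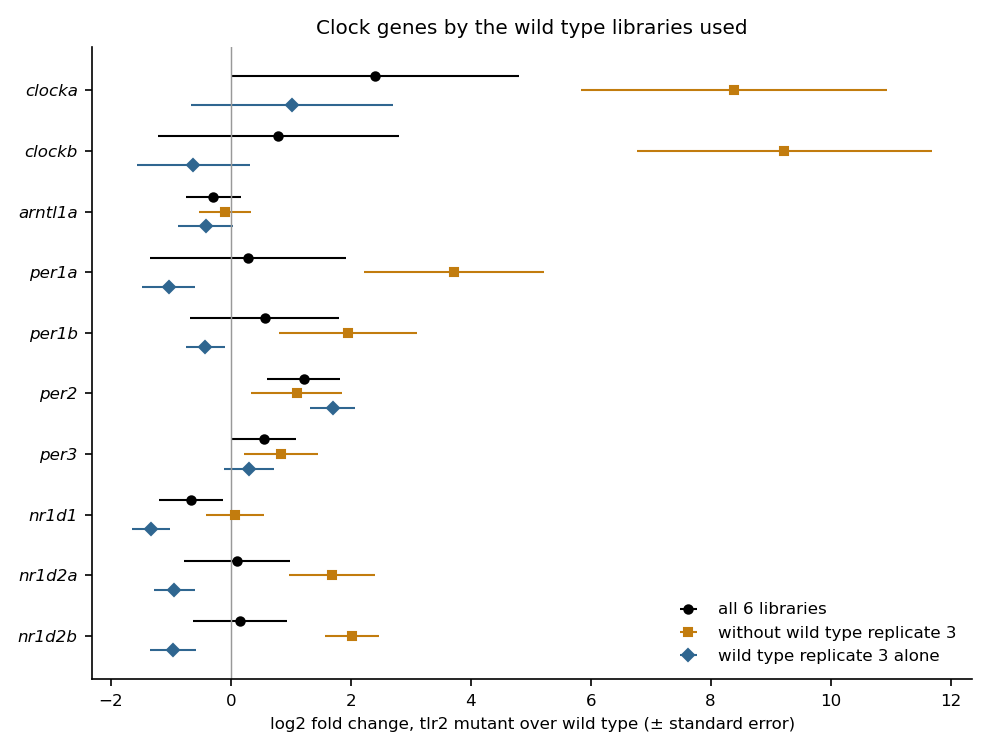
Log2 fold change, tlr2 mutant over wild type (x axis), with its standard error (bars) for each clock gene with all 6 libraries (black circles), without wild type replicate 3 (orange squares) and with wild type replicate 3 as the only wild type library (blue diamonds). per2 stays right of 0 in the 3 fits (1.22, 1.09 and 1.70), while clockb, per1a, per1b, nr1d1, nr1d2a and nr1d2b lie on opposite sides of 0 in the last pair; orange values of clocka and clockb are against libraries at 0 and are no bound.

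Other genes of the clock pathway were followed in lists of 56 further symbols. Of these, 45 had an entry that could be joined to transcript rows, giving 53 entries of which 44 were tested. Entries with reads that could not be joined, among them those of tph2 and a further one of tph1a, were left out. None of the 44 passed the adjusted threshold, 31 log2 fold changes were positive and 13 negative, and their median was 0.42. Over all genes tested 8579 were positive and 8197 negative. fbxl3b, which encodes an F-box protein of the family that marks cryptochromes for degradation, was the only entry with an unadjusted p under 0.05. It had 94.0, 106 and 76.5 CPM in mutants, against 82.1, 22.2 and 19.8 CPM in wild type (log2 fold change 1.16, standard error 0.51, unadjusted p = 0.0419, adjusted p = 0.9998). The groups overlap through wild type replicate 1.

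In CPM, the groups of 4 tested entries did not overlap with mutants higher, and of 3 with mutants lower, against 6.87% and 6.2% of all genes. In TPM the groups of all 4 higher entries (cry1aa, rorcb, bhlhe40 and tph1a) overlap, and those of the 3 lower entries do not. Mean TPM of cry1aa was 28.2 in mutants and 30.8 in wild type, and that of bhlhe40 was 80.8 and 97.4. Among the cryptochromes, the partners of the period proteins, all 5 tested log2 fold changes were positive (0.08 to 0.58). Mean TPM, however, was lower in mutants for all 5, with 9.79 against 13.3 for cry1ba and 3.73 against 5.73 for cry2. In CPM cry1aa had 135, 112 and 132 in mutants, against 88.2, 95.1 and 97.2 in wild type. Its log2 fold change was 0.44 with a standard error of 0.32 (unadjusted p = 0.191). The casein kinase 1 genes csnk1da and csnk1db, whose products phosphorylate period proteins and set their turnover, lay lower without overlap. The tested entries of csnk1e, a further casein kinase 1 gene, had log2 fold changes of -0.076 and 0.60, with groups that overlap. csnk1da had 59.9, 77.3 and 81.2 CPM in mutants, against 111, 113 and 121 CPM in wild type (log2 fold change -0.66, standard error 0.32, unadjusted p = 0.0603). csnk1db had 104, 98.3 and 102 CPM in mutants, against 128, 141 and 137 CPM in wild type (log2 fold change -0.41, standard error 0.31, unadjusted p = 0.211). In CPM the 3 wild type libraries lay close together for csnk1da and csnk1db, unlike for the period and Rev-erb genes. In TPM wild type replicate 3 stood higher than replicates 1 and 2. It had 57.5 against 30.2 and 26.5 TPM for csnk1da, and 72.6 against 40.9 and 38.9 TPM for csnk1db.

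Of the PAR bZIP and Nfil3 output factors, 7 of 8 tested log2 fold changes were positive (-0.28 to 1.70), and of the ROR and other Rev-erb receptors 6 of 6 (0.16 to 1.93), none with an unadjusted p under 0.05. Mean TPM of the tested output factors was higher in mutants for tefb and nfil3-6 only, and lower for the others. Of the tested receptors, roraa and rorab had a lower mean TPM in mutants and the others a higher one. rorcb, of the ROR receptors that oppose the Rev-erb receptors, had 9.84, 8.96 and 6.46 CPM in mutants, against 4.83, 1.72 and 6.21 CPM in wild type. bhlhe40, a repressor that competes for E-boxes, had 299.7, 307 and 326 CPM in mutants, against 294, 211 and 252 CPM in wild type. One of 2 entries of its relative bhlhe41 (ENSDARG00000114358) had 2.76, 0 and 1.04 CPM in mutants, against 7.14, 7.64 and 8.22 CPM in wild type (log2 fold change -2.59, standard error 1.39, unadjusted p = 0.0859). The other entry of that symbol was at 1.61 to 14.4 CPM in mutants and at 2.20 to 11.2 CPM in wild type, so it did not share the direction, and reads may be split between the entries. tph1a, which encodes an enzyme of serotonin synthesis upstream of melatonin, had 2.48, 1.58 and 2.26 CPM in mutants, against 0.333, 0 and 1.28 CPM in wild type, and the other 4 tested entries of the melatonin list had negative log2 fold changes (-1.66 to -0.61).

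In whole larvae, fewer cells of a type and less RNA per cell cannot be told apart. The pineal gland and photoreceptors hold light-responsive clocks, and 20 entries of their markers were followed. Of these, 14 had positive and 6 negative log2 fold changes (gnat1, grk7a, rcvrn3, aanat2 and the second entries of arr3a and crx), and 0 passed the adjusted threshold. With an unadjusted p under 0.05 were 4, all higher in mutants, against 1.73% of all genes. In CPM the groups of 7 did not overlap with mutants higher and of 0 with mutants lower, against 6.87% and 6.2% of all genes. In TPM the groups of rho, exorh and pde6ha stayed apart, pde6ha narrowly (lowest mutant 1328, highest wild type 1319 TPM). Those of otx5, gngt2b and an entry each of arr3a and gngt2a overlap in TPM. The summed TPM of the 20 entries was 10217 to 11117 in mutants and 5817 to 8472 in wild type, without overlap. rho, the rod opsin, carried that gap, and without it the sums were 4948 to 5849 in mutants and 3173 to 5683 in wild type, which overlap. Of this list only aanat2 was at 0 in a library, wild type replicate 2, and of the other lists an entry each of ctrb1, hbbe2 and alas2 was at 0 in some library. Marker sums of neurons (289 to 425 TPM in mutants, 327 to 790 in wild type), exocrine pancreas, liver, muscle, skin and blood overlapped between the groups. All 6 skin entries had negative log2 fold changes (median -0.56), 2 of them with an unadjusted p under 0.05 (an entry each of krt4 and krt5), against 1.99% of all genes, and 0 passed the adjusted threshold. The part of these cells in the levels of per2 and the other clock genes was not tested.

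Finally, genes were ranked by how closely their centred log2 CPM followed the mean profile of the 7 period and Rev-erb genes over the 6 libraries. Of 8411 genes compared, tulp4b, acaca, sin3aa, clstn1, zgc:91860 and svep1 were closest, with a root mean square difference of 0.185 to 0.248, against a median of 1.39 over the genes compared. tulp4b, for example, had 13.5, 14.1 and 13.7 CPM in mutants, against 3.30, 1.33 and 16.9 CPM in wild type. acaca, which encodes acetyl-CoA carboxylase of fatty acid synthesis, had 18.1, 22.1 and 20.6 CPM in mutants, against 8.10, 2.55 and 34.7 CPM in wild type. None of the 6 is on the clock lists. The clock genes that enter the profile were farther from it than these. They stood at 0.472 for nr1d2a, 0.533 for nr1d2b, 0.898 for nr1d1 and up to 1.76 for per1a. The 6 genes were picked as the closest, so their smaller differences follow from the ranking. The profile was lowest in wild type replicates 2 and 1, where the fewest genes were detected. It was highest in wild type replicate 3, where the most were. The part of detection in the likeness of the 6 genes to the profile was not tested.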

How the data were processed

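The authors made expected counts (estimated reads per transcript) with Salmon 1.2.1 against GRCz11, and TPM values from the same run were deposited. The authors' gene table gives, as a signal per gene, the mean count over libraries after DESeq2 normalization; fold changes and s-values in that table were not used. The sources used here give neither the options nor the annotation release. Genes were joined to transcript rows by recomputing that mean (relative difference under 1e-12), which joined 21079 of 23956 genes with a mean above 0 and at least 99.909% of each library's reads.

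Estimated counts were summed per gene, rounded, filtered with edgeR 4.0.16's default, scaled with TMM and tested for genotype in its robust quasi-likelihood fit, without other factors (R 4.3.3, two-sided, adjusted p under 0.05). The standard error is the log2 fold change divided by the square root of F. Centred values use a prior count of 2. A p-value here reflects only the spread among these pooled samples. Fits were tested on simulated data. Alternatives were RLE scaling, 2 other filters, length offsets, summed symbols, the replicate block, leaving out libraries, DESeq2 1.42.0 and limma 3.58.1 on log2 TPM; arntl1a alone, leaving out per2, TPM overlap and a marker sum without rho were added after seeing the data. Figures used matplotlib 3.10.9.

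The clock genes and lists were chosen with earlier results of these data known. All 10 clock genes are named, and of the other lists entries with an unadjusted p under 0.05 or groups without overlap and a mean of at least 1 CPM, up to 4 a list; the 6 most similar genes had a mean of at least 5 CPM. Replicate numbers were taken as pairs in the replicate block only.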

Additional observations from a re-analysis of the deposited data

How the results depend on the processing

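Over 16 alternatives, arntl1a, clocka, per2 and per3 kept their sign, and clockb and nr1d1 did in 15, per1b in 14, per1a in 13, and nr1d2a and nr1d2b in 12. With a library left out, log2 fold changes spanned -0.30 to 3.72 for per1a, -0.016 to 1.95 for per1b, -1.11 to 0.073 for nr1d1, -0.44 to 1.68 for nr1d2a and -0.29 to 2.02 for nr1d2b, with signs that turned; the cause was not tested. Against wild type replicate 3 alone clockb was -0.63, per1a -1.04, per1b -0.42, nr1d2a -0.94 and nr1d2b -0.97; 758 genes were called, 5 clock genes had an unadjusted p under 0.05 and 10 did not overlap, which a single library makes easier.

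The count of genes called, 1 in the fit to all 6 libraries, was 3 with no filter, 0 with a mean CPM of at least 1, 0 with entries of a symbol summed, 39 with DESeq2, 7 with limma on log2(TPM + 1), 0 on log2(TPM + 0.1), and 0 to 5 with a library left out. Clock genes with an unadjusted p under 0.05, 0 in that fit, numbered 1 with DESeq2 (per2, adjusted p = 0.816), against 943 of all 17266 genes. With a library left out they numbered 0 to 4, against 316 to 2923 of all genes. Without overlap were 0 clock genes on log2(TPM + 1) and 0 on TPM, and 1 to 6 with a library left out. The 6 were without wild type replicate 3, where 35.7% of all genes did not overlap. The activator minus repressor difference was -0.35 on log2(TPM + 1), 0.018 on log2(TPM + 0.1), -1.58 with arntl1a alone, 0.85 without per2, 0.41 (without wild type replicate 1) to 1.03 with a library left out, and 0.29 against wild type replicate 3 alone.

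Samples with the same replicate number did not deviate together (correlations of 0.0018, 0.044 and 0.057). The numbers were therefore not taken as pairs in the fit with genotype as the only factor. With the replicate block, 64 genes were called, and 2 clock genes had an unadjusted p under 0.05, against 1084 of all 16776 genes tested. In that fit per2 was called (log2 fold change 1.64, adjusted p = 0.0245, edgeR), and the median over all genes moved to 0.33. The median also moved to 0.21 without wild type replicate 3, 0.12 with DESeq2 and 0.15 without wild type replicate 1. On log2(TPM + 1) it was -0.22 and on log2(TPM + 0.1) -0.17. The search for promoter motifs was not run. clocka and clockb had 0 reads in wild type replicates 1 and 2, and the first of these held more reads in all than any mutant library; the cause was not tested.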
